A study of Mus musculus with 24 samples.

Results

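The 6 genes described here encode carriers that move lactate and glucose across the cell membrane. Slc16a1, Slc16a3 and Slc16a7 encode the monocarboxylate transporters MCT1, MCT4 and MCT2, Bsg encodes basigin, and Slc2a1 and Slc2a3 encode the glucose transporters GLUT1 and GLUT3. They were taken by gene symbol, 1 probe set each and 6 in all, from 28856 probe sets that name 19938 single genes. RNA came from primary cultures of fetal midbrain (mesencephalon) and cortex of C57Bl/6 mice at embryonic day 14, which the study names neural stem cells. All cultures were kept in expansion medium, for 48 h or 13 d, either at 21% O2 or in a hypoxic gas of 3% O2 with 5% CO2. Region, time and oxygen gave 8 groups of 3 arrays each, and the question was how short and long culture in low oxygen compares with normal oxygen in each region.

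Cells that make much of their energy by glycolysis take up glucose through GLUT1 and GLUT3 and release lactate with a proton through monocarboxylate transporters. MCT4 is known as the form of lactate-exporting cells and as a target of hypoxia-inducible factors (HIF), MCT1 works in both directions and is found in many cell types, and MCT2 takes up lactate and pyruvate with high affinity and in brain is found mainly on neurons. Basigin is the membrane glycoprotein that carries MCT1 and MCT4 to the cell surface. GLUT1 is the transporter of glia and of brain endothelium, and GLUT3 that of neurons, and both genes are known to respond to HIF.

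HIF binds a short DNA core, ACGTG or GCGTG, so the sequence before the start site is shown for the members with a RefSeq promoter window (3 of 6: Slc16a3, Slc16a1 and Slc2a1). The sequences are from build GRCm38.p6, plus strand, 5′ to 3′, ending at the base before the start site, with capitals marking each match to either core on either strand (CACGT and CACGC on the reverse). For Slc16a1 and Slc2a1 all 250 bases before the start are shown. The Slc16a3 window lies within the annotated span of the gene, before one of its inner start sites. For that reason only its last 30 bases are shown, which hold both of its matches.
Slc16a3, chr11:120949037-120949066: gtgACGTGcgcgggggACGTGccgcgcgac
Slc16a1, chr3:104638414-104638663: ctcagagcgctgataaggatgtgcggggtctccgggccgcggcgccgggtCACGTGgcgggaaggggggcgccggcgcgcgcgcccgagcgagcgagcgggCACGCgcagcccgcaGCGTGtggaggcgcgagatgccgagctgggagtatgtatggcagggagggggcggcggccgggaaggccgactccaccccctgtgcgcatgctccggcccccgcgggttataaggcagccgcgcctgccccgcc
Slc2a1, chr4:119108495-119108744: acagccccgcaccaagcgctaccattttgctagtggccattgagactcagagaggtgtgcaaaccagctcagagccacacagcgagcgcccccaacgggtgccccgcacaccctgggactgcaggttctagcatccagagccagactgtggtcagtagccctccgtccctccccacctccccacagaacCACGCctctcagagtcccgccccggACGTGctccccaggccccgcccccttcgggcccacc
In Slc16a3 the core ACGTG occurred 2 times within 30 bases of the start and GCGTG 0 times in the 250 bases. In Slc16a1 the 2 matches to ACGTG are both strands of 1 palindrome, CACGTG, and GCGTG occurred 2 times, with 1 further match reaching into the 50 bases after the start. Slc2a1 held 1 match to each core. Of 32851 RefSeq windows, 16.6% held ACGTG in the 250 bases before the start, 28.2% held GCGTG and 38.6% held either, so matches of these letters are common and do not show that a factor binds.

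Values lay between 4.65 and 14.49 on the log2 scale, with array medians of 7.35 to 7.42, and arrays of 1 group correlated at 0.986 to 0.999. Nothing in the labels ties the 3 arrays of a group to cultures or animals of their own, so the p-values below reflect array-to-array spread that may be technical, and having 3 arrays a group limits the precision. The 6 midbrain 13 d arrays belong to array set 1 and the other 18 to set 2, so levels in midbrain 13 d cannot be told apart from the array set when set against other groups, whereas each 3% against 21% comparison lies within 1 set. The arrays labelled cortex 48 h went only partly with their label. Tbr1, a transcription factor of cortical neurons, averaged 6.86 at 21% and 6.50 at 3% O2 there, against 11.44 and 11.34 in cortex 13 d and 6.12 and 6.07 in midbrain 48 h. En2, a midbrain and hindbrain factor, averaged 7.67 and 7.92 in cortex 48 h, 6.03 and 6.00 in cortex 13 d, and 9.90 and 9.85 in midbrain 48 h. Over whole lists, 5 midbrain markers averaged 7.41 at 21% and 7.68 at 3% O2 in cortex 48 h, above cortex 13 d (6.89 and 6.93) and below every midbrain group (8.17 to 9.05). The 5 cortex markers averaged 7.96 and 7.46 there, above midbrain 13 d (7.04 and 6.92) but not above midbrain 48 h (8.16 and 8.05), and far below cortex 13 d (9.95 and 9.88). Replicate 1 of cortex 48 h at 3% O2 stood apart from the other arrays of its group. Its midbrain markers averaged 8.12 against 7.42 and 7.50, within the midbrain 13 d arrays at 3% O2 (8.06 to 8.23). Its cortex markers averaged 6.89 against 7.79 and 7.69, no higher than on those midbrain arrays (6.90 to 6.93). The mean of 8 neuron markers ran in opposite order over time in the 2 regions, from 12.32 at 48 h to 8.74 at 13 d in midbrain and from 9.79 to 11.84 in cortex (both at 21% O2). Directions between the 2 cortex times therefore rest on labels that these markers match only in part. The same holds for comparisons of the regions at the same labelled time. The responses averaged over groups are also given without cortex 48 h.

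Low oxygen went with higher RNA of Slc16a3 and both glucose transporter genes and, to a smaller extent, of Slc16a1 and Bsg, while Slc16a7 did not pass limma's test. Averaged over the 4 region and time groups, Slc16a3 was 2.32 ± 0.15 (SE) log2 units or 5.00-fold higher at 3% O2 (limma adjusted p = 5.51e-09), the largest log2 rise of 23410 tested probe sets. Slc2a3 was 1.43 ± 0.11 or 2.69-fold higher (limma adjusted p = 5.69e-08), at rank 10, and Slc2a1 1.17 ± 0.10 or 2.26-fold (limma adjusted p = 1.25e-07), at rank 16. The smaller rises were 0.39 ± 0.05 or 1.31-fold for Slc16a1 (limma adjusted p = 1.62e-05) and 0.30 ± 0.03 or 1.23-fold for Bsg (limma adjusted p = 3.52e-06). Thus 5 of 6 members rose in this mean by limma's test with an adjusted p under 0.05, where 8.78% of all tested probe sets rose and 10.8% fell. The members and lists were chosen with earlier results of these data known. This and the later counts set beside all probe sets are therefore descriptions only. The median change of the 6 members was 0.78 on the log2 scale, against -0.01 over all tested probe sets. Without the cortex 48 h arrays, a check added after the data were seen, 5 of 6 again rose, by 2.73 for Slc16a3, 1.53 for Slc2a3, 1.38 for Slc2a1, 0.39 for Slc16a1 and 0.38 for Bsg.

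By group, 2 of 6 members rose in midbrain 48 h (Slc16a3 and Slc2a1), where 0.701% of tested probe sets rose. In midbrain 13 d, 5 of 6 rose, all but Slc16a7, against 11.2% of probe sets. In cortex labelled 48 h, 3 of 6 rose (Slc16a1, Slc16a3 and Slc2a3), against 6.25%. The calls of Slc16a1 and Slc16a3 there were lost without replicate 1 at 3% O2, the array whose region markers stood apart. In cortex 13 d, 4 of 6 rose (Slc16a3, Bsg, Slc2a1 and Slc2a3), against 0.543%. No member fell in any of the 4 groups, where 0.491%, 12.7%, 6.08% and 0.0641% of probe sets fell in the same order. The cortex 13 d count therefore stands on a background of few rises and the midbrain 13 d count on one of many.

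**Figure D1:**
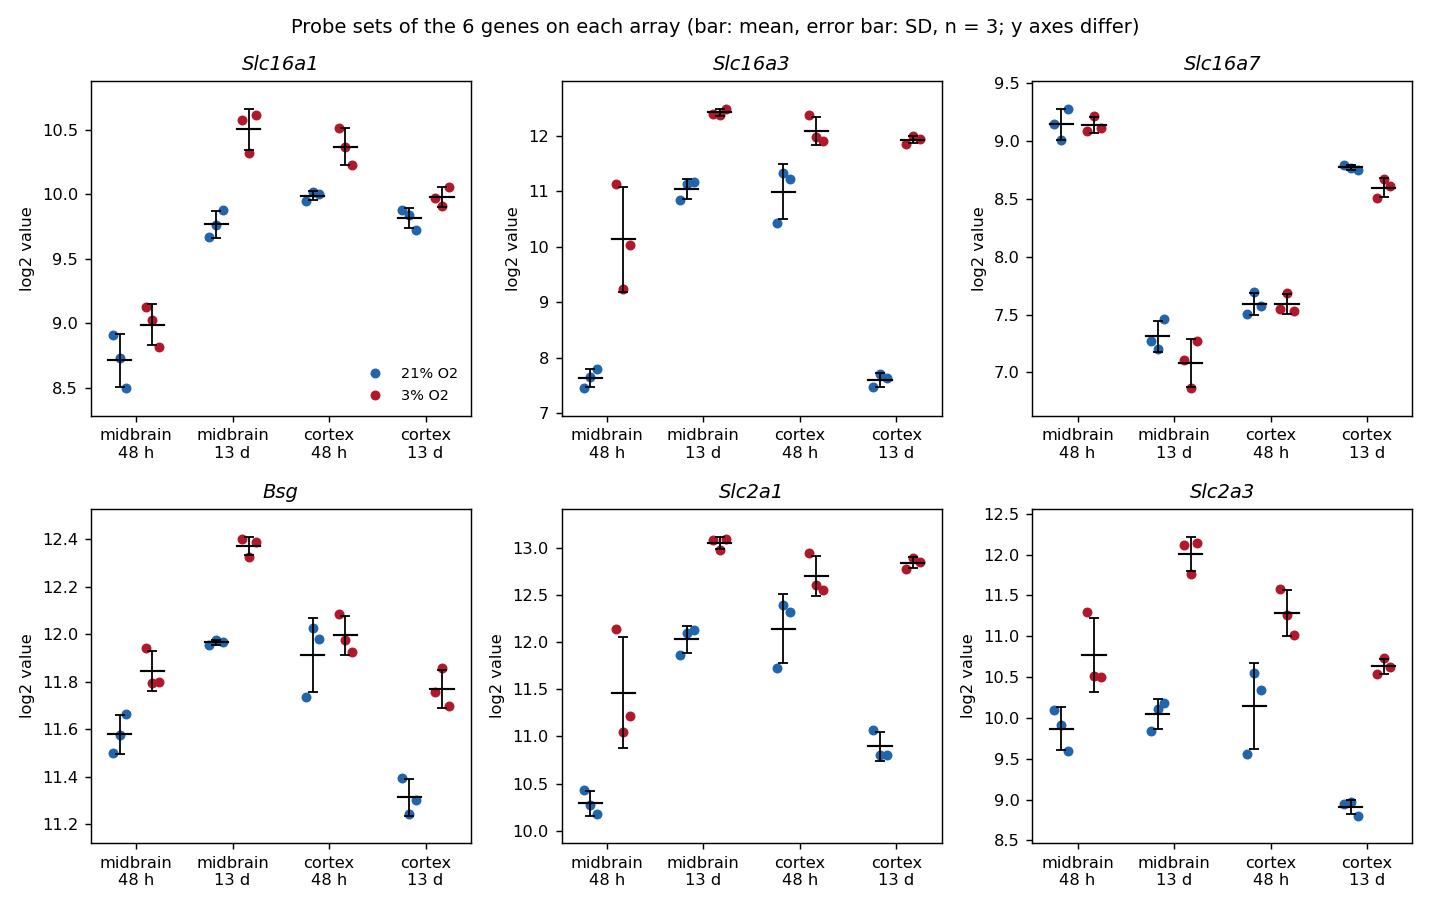
Log2 value of each of the 6 probe sets (y axes differ between panels) on every array, by region and culture time, with 21% O2 in blue and 3% O2 in red; the bar is the mean and the error bar the SD of 3 arrays. Slc16a3 is lowest at 21% O2 in midbrain 48 h and cortex 13 d, with means of 7.64 and 7.61, and Slc16a7 overlaps between oxygen levels at 48 h in both regions.

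Slc16a3, the lactate exporter MCT4, had the widest range of the 6, with group means from 7.61 to 12.42. In midbrain 48 h its log2 values were 7.46, 7.66 and 7.79 at 21% O2 and 11.13, 9.24 and 10.03 at 3% O2. Those of cortex 13 d were 7.47, 7.71 and 7.64 at 21% O2 and 11.86, 11.99 and 11.94 at 3% O2. All arrays at 21% O2 in these 2 groups lay near the median of the whole table, 7.39, and no array at 3% came near them. For midbrain 13 d the values were 10.84, 11.12 and 11.16 at 21% O2 and 12.40, 12.38 and 12.49 at 3% O2. In cortex labelled 48 h they were 10.43, 11.33 and 11.23 at 21% O2 and 12.37, 11.98 and 11.90 at 3% O2. The 3% arrays were thus above the 21% arrays in all 4 groups without overlap, but from a start much higher in midbrain 13 d and cortex 48 h.

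The rise of Slc16a3 was 4.32 ± 0.30 (SE) on the log2 scale in cortex 13 d, or 20.0-fold (limma adjusted p = 2.33e-07), the largest of 23410 probe sets. It was 2.50 ± 0.30 in midbrain 48 h, or 5.64-fold (limma adjusted p = 0.000252), again the largest of all. The rise in midbrain 13 d was 1.38 ± 0.30, or 2.60-fold (limma adjusted p = 0.00174), at rank 106. In cortex 48 h it was 1.09 ± 0.30, or 2.13-fold (limma adjusted p = 0.0208), at rank 101. The 3% means lay closer together than the 21% means: the 4 groups spanned 2.29 log2 units at 3% O2 and 3.43 at 21% O2. The cortex 48 h call was lost without replicate 1 at 3% O2 (0.95, adjusted p = 0.0935) and without replicate 1 at 21% O2 (0.81, adjusted p = 0.0811). When only the 6 arrays of a group were fitted, the calls in midbrain 48 h (limma adjusted p = 0.167) and cortex 48 h (limma adjusted p = 0.112) were lost. With array set 2 alone the cortex 48 h call was also lost (limma adjusted p = 0.0516).

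Slc16a1, the bidirectional carrier MCT1, rose in the midbrain 13 d and the labelled cortex 48 h cultures. Its log2 values in midbrain 13 d were 9.67, 9.76 and 9.88 at 21% O2 and 10.57, 10.32 and 10.61 at 3% O2. In cortex 48 h they were 9.95, 10.02 and 10.00 at 21% and 10.51, 10.37 and 10.23 at 3% O2. The 2 oxygen levels did not overlap in either group. The change was 0.74 ± 0.10 (SE), or 1.67-fold, in midbrain 13 d (limma adjusted p = 1.97e-05) and 0.38 ± 0.10, or 1.30-fold, in cortex 48 h (limma adjusted p = 0.0177). The latter call was lost without replicate 1 at 3% O2 (0.31, adjusted p = 0.0977) and without replicate 3 at 21% O2 (0.39, adjusted p = 0.0517). It was also lost when only the cortex 48 h arrays were fitted (limma adjusted p = 0.0863).

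Elsewhere Slc16a1 did not pass the test. In midbrain 48 h its values were 8.91, 8.73 and 8.50 at 21% O2 and 9.13, 9.03 and 8.81 at 3% O2, which overlap, and the difference was 0.28 (95% interval 0.06 to 0.49, limma adjusted p = 0.203). Same-numbered arrays, treated as pairs, differed by 0.22, 0.29 and 0.31, higher at 3% in 3 of 3, with a limma adjusted p = 0.109 for the paired fit. Without replicate 3 at 21% O2 the difference was 0.17. In cortex 13 d they were 9.88, 9.84 and 9.73 at 21% and 9.97, 9.91 and 10.06 at 3% O2. The 3% arrays were all higher there, by 0.16 in the mean (95% interval -0.05 to 0.38, limma adjusted p = 0.851).

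Slc16a7, the high-affinity carrier MCT2, differed between cultures far more than between oxygen levels. Its log2 values were 9.14, 9.01 and 9.27 at 21% O2 and 9.09, 9.22 and 9.11 at 3% O2 in midbrain 48 h. In cortex 48 h they were 7.50, 7.69 and 7.58 at 21% and 7.55, 7.69 and 7.53 at 3% O2. The oxygen levels overlapped in both, with differences of -0.00 (95% interval -0.19 to 0.18) and -0.00 (95% interval -0.19 to 0.19). At 13 d the values at 3% O2 were slightly lower. In cortex 13 d they were 8.79, 8.77 and 8.75 at 21% and 8.51, 8.67 and 8.61 at 3% O2, the only one of the 24 combinations of gene and group in which all 3% arrays were lower (difference -0.18, limma adjusted p = 0.728). In midbrain 13 d they were 7.27, 7.21 and 7.46 at 21% and 7.11, 6.87 and 7.27 at 3% O2. Here the difference was -0.23 ± 0.09 (SE; limma adjusted p = 0.0725), and it passed with same-numbered arrays as pairs (limma adjusted p = 0.0251) and without replicate 3 at 3% O2 (-0.33, limma adjusted p = 0.0144), but was -0.12 without replicate 2 at 3% O2.

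Bsg, the partner that carries MCT1 and MCT4 to the membrane, rose at 13 d in both regions by small and even amounts. Its log2 values in midbrain 13 d were 11.95, 11.98 and 11.97 at 21% O2 and 12.40, 12.33 and 12.39 at 3% O2. Those of cortex 13 d were 11.39, 11.24 and 11.30 at 21% and 11.76, 11.86 and 11.70 at 3% O2. Neither pair of groups overlapped, and the rises were 0.41 ± 0.07 (SE), or 1.33-fold (limma adjusted p = 0.000192), and 0.46 ± 0.07, or 1.37-fold (limma adjusted p = 0.00113). At 48 h Bsg did not pass the test. Midbrain values were 11.50, 11.58 and 11.66 at 21% against 11.94, 11.79 and 11.80 at 3% O2, without overlap and 0.27 apart (limma adjusted p = 0.0694, or 0.0105 after quantile normalization). Cortex values were 11.74, 12.03 and 11.98 at 21% against 12.08, 11.98 and 11.93 at 3% O2, with overlap and 0.08 apart (95% interval -0.07 to 0.23).

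Slc2a1, the widely expressed glucose carrier GLUT1, was higher on every 3% array than on any 21% array of its group. In cortex 13 d its log2 values were 11.07, 10.81 and 10.81 at 21% O2 and 12.78, 12.89 and 12.85 at 3% O2. Those of midbrain 13 d were 11.87, 12.09 and 12.13 at 21% and 13.09, 12.98 and 13.10 at 3% O2. In midbrain 48 h they were 10.43, 10.27 and 10.17 at 21% and 12.13, 11.05 and 11.21 at 3% O2. The 3% arrays of midbrain 48 h were uneven, with replicate 1 well above the other 2. The rises were 1.95 ± 0.20 (SE), or 3.85-fold, in cortex 13 d (limma adjusted p = 1.58e-05), 1.02 ± 0.20, or 2.03-fold, in midbrain 13 d (limma adjusted p = 0.000796), and 1.18 ± 0.20, or 2.26-fold, in midbrain 48 h (limma adjusted p = 0.00633). The last was lost when only its 6 arrays were fitted (adjusted p = 0.194). In cortex labelled 48 h the values were 11.73, 12.39 and 12.32 at 21% and 12.94, 12.60 and 12.55 at 3% O2, 0.55 apart (95% interval 0.13 to 0.98, limma adjusted p = 0.0864).

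Slc2a3, the high-affinity glucose carrier GLUT3, was also higher on every 3% array of its group. Its log2 values in midbrain 13 d were 9.85, 10.11 and 10.19 at 21% O2 and 12.12, 11.76 and 12.14 at 3% O2. Those of cortex 13 d were 8.95, 8.97 and 8.81 at 21% and 10.54, 10.73 and 10.63 at 3% O2. In cortex labelled 48 h they were 9.56, 10.55 and 10.35 at 21% and 11.58, 11.26 and 11.02 at 3% O2. The gaps at 13 d were wide, while in cortex 48 h the 21% arrays were widely spread. The rises were 1.96 ± 0.23 (SE), or 3.89-fold, in midbrain 13 d (limma adjusted p = 2.49e-06), 1.72 ± 0.23, or 3.31-fold, in cortex 13 d (limma adjusted p = 0.000199), and 1.14 ± 0.23, or 2.20-fold, in cortex 48 h (limma adjusted p = 0.00204). Slc2a3 stood at ranks 23, 12 and 92 of 23410 in these groups. Its cortex 48 h call was lost when only the arrays of that culture were fitted (limma adjusted p = 0.12). In midbrain 48 h the values were 10.10, 9.92 and 9.59 at 21% and 11.29, 10.51 and 10.50 at 3% O2. The difference of 0.90 (95% interval 0.43 to 1.37) missed the threshold with limma's adjusted p = 0.0607, and passed with p adjusted over the 12988 brighter probe sets (0.0493), after quantile normalization (0.0442) or with array weights (0.0241).

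**Figure D2:**
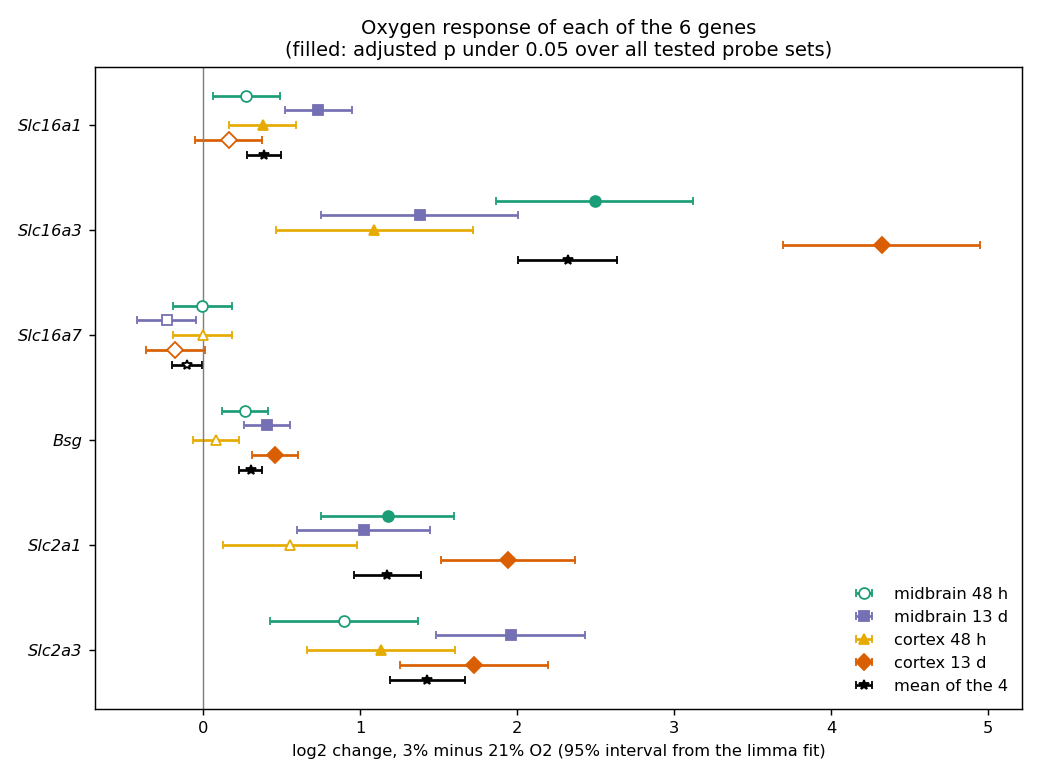
Log2 change at 3% against 21% O2 (x axis, with the 95% interval of the limma fit) for each gene (rows) in the 4 region and time groups and their mean; filled symbols have an adjusted p under 0.05. Slc16a3 in cortex 13 d lies farthest to the right at 4.32, and the 5 symbols of Slc16a7 lie between -0.23 and -0.00.

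Counted over the 24 combinations of gene and group, all 3% arrays lay above all 21% arrays in 18, all lay below in 1 and the groups overlapped in 5. The 18 comprise 4 genes in midbrain 48 h, 5 in midbrain 13 d, 4 in cortex 48 h and 5 in cortex 13 d. Separation in either direction was found for 18.8%, 40.5%, 22.8% and 17.6% of all tested probe sets in these groups. Over the arrays alone, an exact permutation test of the mean response, which reassigned oxygen labels within the 4 groups (160000 assignments, two-sided), gave its smallest possible p, 1.2e-05, for Slc16a3, Slc2a1 and Slc2a3. The exact permutation p was 6.2e-05 for Slc16a1 and 7.5e-05 for Bsg. For Slc16a7 the mean change of -0.10 had an exact permutation p = 0.044 and a limma adjusted p = 0.125. It came from the 13 d groups (-0.23 in midbrain and -0.18 in cortex), since the 48 h changes were near 0 (-0.0048 and -0.0006). Without the cortex 48 h arrays (8000 assignments), the exact permutation p was 0.00025, the smallest possible, for Slc16a3, Bsg, Slc2a1 and Slc2a3, and 0.00125 for Slc16a1. Slc16a7 then stood at -0.14, with an exact permutation p = 0.0302 and a limma adjusted p = 0.0893.

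The 3 monocarboxylate transporters responded by different amounts, tested over 4 pairs of related genes with unadjusted exact permutation p-values. The Slc16a3 response exceeded that of Slc16a1 by 1.93 log2 units on average (p = 1.2e-05 by exact permutation, the smallest possible). The excess was 4.16 in cortex 13 d and 2.22 in midbrain 48 h, but 0.64 in midbrain 13 d and 0.71 in cortex 48 h. Against Slc16a7 the excess was 2.43, with the same exact permutation p. Slc16a1 itself exceeded Slc16a7 by 0.49 (exact permutation p = 3.8e-05), with the same sign in 4 of 4 groups. The glucose carriers did not separate in this way. Slc2a1 minus Slc2a3 was -0.26 (exact permutation p = 0.061), with the Slc2a3 response larger in midbrain 13 d and cortex 48 h (-0.94 and -0.58) and that of Slc2a1 larger in midbrain 48 h and cortex 13 d (0.28 and 0.22). Without replicate 1 of midbrain 48 h at 3% O2 it was -0.27 with an exact permutation p = 0.0431, and without replicate 2 of cortex 13 d at 21% O2 -0.27 with an exact permutation p = 0.0423. Without the cortex 48 h arrays, Slc16a3 exceeded Slc16a1 by 2.34 and Slc16a7 by 2.87 (exact permutation p = 0.00025 each), Slc16a1 exceeded Slc16a7 by 0.53 (exact permutation p = 0.00075), and Slc2a1 minus Slc2a3 was -0.15 (exact permutation p = 0.359).

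Whether the oxygen response itself differed between cultures was tested as a difference of 2 responses. Between the labelled cortex times it was larger at 13 d for Slc16a3 by 3.23 ± 0.42 (SE; limma adjusted p = 0.000353), for Slc2a1 by 1.39 ± 0.29 (limma adjusted p = 0.0101) and for Bsg by 0.38 ± 0.10 (limma adjusted p = 0.0356). These 3 of 6 compare with 4.13% of tested probe sets called in either direction. The Bsg call was lost on leaving out any one of 8 of the 12 arrays, with values of 0.32 to 0.38 and adjusted p of 0.0643 to 0.107; it held without replicate 1 of either cortex 48 h group, replicate 3 of cortex 13 d at 3% O2 or replicate 1 of cortex 13 d at 21% O2. Slc2a3 differed by 0.59 and passed without replicate 1 of cortex 48 h at 21% O2 (0.89, adjusted p = 0.0392), but was 0.39 and did not pass without replicate 2 of that group. No test free of the cortex 48 h arrays exists for this comparison.

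In midbrain, the response at 13 d exceeded that at 48 h for Slc2a3 by 1.06 ± 0.32 (SE; limma adjusted p = 0.0294) and for Slc16a1 by 0.46 ± 0.14 (limma adjusted p = 0.0358), 2 of 6 where 15.1% of probe sets were called. Both calls depended on single arrays. That of Slc16a1 was lost without any one of 8 of the 12 arrays (0.36 to 0.48, adjusted p 0.0528 to 0.102) and held only without replicate 1 of midbrain 48 h at 3% O2, replicate 2 of midbrain 13 d at 3% O2, or replicate 3 of either midbrain 21% group. That of Slc2a3 was lost without any one of 7 (0.93 to 1.04, adjusted p 0.0541 to 0.0818), and held without those 4 arrays or replicate 2 of midbrain 13 d at 21% O2. Slc16a3 went the other way, by -1.12 (limma adjusted p = 0.0867), and passed without replicate 2 of midbrain 48 h at 3% O2 (-1.56, adjusted p = 0.00529), but was -0.62 and did not pass without replicate 1 of that group.

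Between the regions at 13 d, Slc16a1 responded more in midbrain by 0.57 ± 0.14 (SE; limma adjusted p = 0.0106), while Slc16a3 and Slc2a1 responded less, by -2.94 ± 0.42 (limma adjusted p = 0.000109) and -0.92 ± 0.29 (limma adjusted p = 0.0387). The members called were 3 of 6, against 13.5% of probe sets. These calls rest on the time label of the cortex arrays. Neuron markers averaged 11.84 in cortex labelled 13 d and 8.74 in midbrain 13 d (both at 21% O2). The Slc2a1 call was lost without any one of 10 of the 12 arrays (-0.95 to -0.87, adjusted p 0.0597 to 0.0844), all but replicate 1 of each 21% group, and after quantile normalization (-0.86, adjusted p = 0.0645). Midbrain 48 h was also set against cortex 48 h and cortex 13 d, and midbrain 13 d against cortex 48 h, with 0 of 6 members called in each, against 5.88%, 0.0214% and 6.58% of probe sets. Nearest to the threshold were Slc16a3 between the regions at 48 h (1.40, limma adjusted p = 0.0569) and Bsg in the last (0.33, limma adjusted p = 0.0535). The former passed without replicate 2 of midbrain 48 h at 3% O2 (1.85, adjusted p = 0.00546) and without replicate 1 of cortex 48 h at 21% O2 (1.69, adjusted p = 0.0106), but was 0.91 and did not pass without replicate 1 of midbrain 48 h at 3% O2. Midbrain 48 h minus cortex 13 d was -1.83 for Slc16a3, and without replicate 1 of midbrain 48 h at 3% O2 both it (-2.32, adjusted p = 0.00475) and Slc2a1 (-1.10, adjusted p = 0.0473) passed.

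Levels averaged over both oxygen conditions differed between the cultures of array set 2 for all 6 genes, as they did for much of the array. Cortex 13 d against cortex 48 h was called for 6 of 6 members and 50.3% of probe sets, midbrain 48 h against cortex 48 h for 6 of 6 and 66.4%, and midbrain 48 h against cortex 13 d for 6 of 6 and 51.1%. Between the labelled cortex times, Slc16a7 was higher at 13 d by 1.09 ± 0.06 (SE) and the other 5 were lower, by -1.77 for Slc16a3, -0.95 for Slc2a3, -0.55 for Slc2a1, -0.41 for Bsg and -0.28 for Slc16a1. Slc16a3 was lower in midbrain 48 h than in cortex 48 h by -2.65 ± 0.21 (SE; limma adjusted p = 6.05e-10) and than in cortex 13 d by -0.88 ± 0.21 (limma adjusted p = 0.00144). Slc2a1 was lower there as well, by -1.54 ± 0.14 and -0.99 ± 0.14, and so was Slc16a1, by -1.33 ± 0.07 and -1.04 ± 0.07. Slc16a7 was the only member higher in midbrain 48 h than in both cortex cultures, by 1.55 ± 0.06 (limma adjusted p = 1.65e-14) and 0.46 ± 0.06 (limma adjusted p = 3.74e-06). For Bsg the midbrain 48 h level differed by -0.24 from cortex 48 h (limma adjusted p = 0.000201), which was lost after quantile normalization (-0.09, adjusted p = 0.137), and by 0.17 from cortex 13 d. Slc2a3 differed by -0.40 from cortex 48 h (limma adjusted p = 0.0332) and by 0.55 from cortex 13 d. The former was lost without any one of 6 arrays (-0.35 to -0.30, adjusted p 0.0796 to 0.104): replicates 2 and 3 of midbrain 48 h at 3% O2, replicate 3 at 21% O2, replicate 1 of cortex 48 h at 3% O2 and replicates 2 and 3 at 21% O2.

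In order of level, midbrain 13 d at 3% O2 came first for every member but Slc16a7, and was clear of the next group for Slc16a3, Bsg, Slc2a1 and Slc2a3, although that group belongs to array set 1. For Slc16a3, cortex 48 h and cortex 13 d at 3% O2 followed and overlapped each other (12.09 and 11.93), then midbrain 13 d and cortex 48 h at 21% and midbrain 48 h at 3% O2, each overlapping its neighbour (11.04, 10.99 and 10.13), and last midbrain 48 h and cortex 13 d at 21% O2, which also overlapped (7.64 and 7.61). For Slc16a1 the lowest pair was midbrain 48 h at 3% and 21% O2 (8.99 and 8.71), clear of all others. For Slc2a1 the lowest group was midbrain 48 h at 21% O2 (10.29), and for Slc2a3 and Bsg it was cortex 13 d at 21% O2 (8.91 and 11.31), each clear of the next. Bsg had the narrowest range of group means, 1.06, against 1.79 for Slc16a1, 2.06 for Slc16a7, 2.76 for Slc2a1, 3.10 for Slc2a3 and 4.81 for Slc16a3.

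Slc16a7 levels fell into the order midbrain 48 h (9.14 at both oxygen levels), cortex 13 d (8.77 at 21% and 8.59 at 3% O2), cortex 48 h (7.59 at both) and midbrain 13 d (7.31 and 7.08). The neuron markers had the same order of cultures, with list means at 21% and 3% O2 of 12.32 and 12.23 in midbrain 48 h, 11.84 and 11.82 in cortex 13 d, 9.79 and 9.34 in cortex 48 h and 8.74 and 8.76 in midbrain 13 d. This order was not particular to neuron markers. The microglia list had it too, at lower values (7.25 and 7.18, 6.46 and 6.50, 6.28 and 6.41, and 6.25 and 6.29). The astrocyte list had the reverse order (7.77 and 7.77, 7.96 and 7.95, 9.09 and 8.64, and 9.72 and 9.46). The oligodendrocyte lineage markers (7 measured) ran roughly the other way from Slc16a7, with list means of 8.39 to 8.90 in the first 2 cultures and 10.13 to 10.75 in the last 2. In these bulk samples, fewer cells of a type and less RNA per cell cannot be told apart, and the part of cell mixture in the levels was not tested.

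Other cell types' markers were also set beside the oxygen responses. Of all tested probe sets, 0.701% rose and 0.491% fell in midbrain 48 h, and 11.2% and 12.7% in midbrain 13 d. In cortex 48 h 6.25% rose and 6.08% fell, and in cortex 13 d 0.543% and 0.0641%. Of 10 endothelial markers, which bear on Slc2a1, 0 passed in midbrain 48 h, cortex 48 h and cortex 13 d, and 2 rose in midbrain 13 d. Their list mean was 6.35 to 6.82 on every array. In midbrain 13 d it was higher at 3% O2 without overlap, at 6.69 to 6.82 against 6.43 to 6.51 at 21% O2 (means 6.76 and 6.48). Among the 10, Cldn5 and Pecam1 had group means of 6.62 to 6.87 and 6.21 to 6.43, below the median of the table. Cdh5 stood higher on replicate 3 of midbrain 48 h, at 8.12 at 3% and 8.09 at 21% O2, and the pericyte and fibroblast list did so on the same 2 arrays (8.57 and 8.66, against 6.99 to 7.16 on the other 4). Slc2a1 was 11.21 and 10.17 on them, in neither case the highest of its group. Of 6 pericyte and fibroblast markers 2 rose in midbrain 13 d, where the list mean was 7.06 at 21% and 7.71 at 3% O2. Of 8 neuron markers 5 fell in cortex 48 h, 1 rose and 2 fell in midbrain 13 d, and 0 passed in cortex 13 d or midbrain 48 h. Of 8 progenitor markers 2 fell in midbrain 13 d and 2 in cortex 48 h, where the list means were 11.94 and 11.97 at 21% and 11.64 and 11.63 at 3% O2, and 0 passed in the other two groups. Astrocyte list means at 21% and 3% O2 were 9.72 and 9.46 in midbrain 13 d and 9.09 and 8.64 in cortex 48 h. They were 7.77 and 7.77 in midbrain 48 h and 7.96 and 7.95 in cortex 13 d. Oligodendrocyte lineage means were 10.58 and 10.13 in midbrain 13 d and 10.75 and 10.60 in cortex 48 h. In midbrain 48 h they were 8.39 and 8.44, and in cortex 13 d 8.74 and 8.90. The part of these markers in the responses was not tested.

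**Figure D3:**
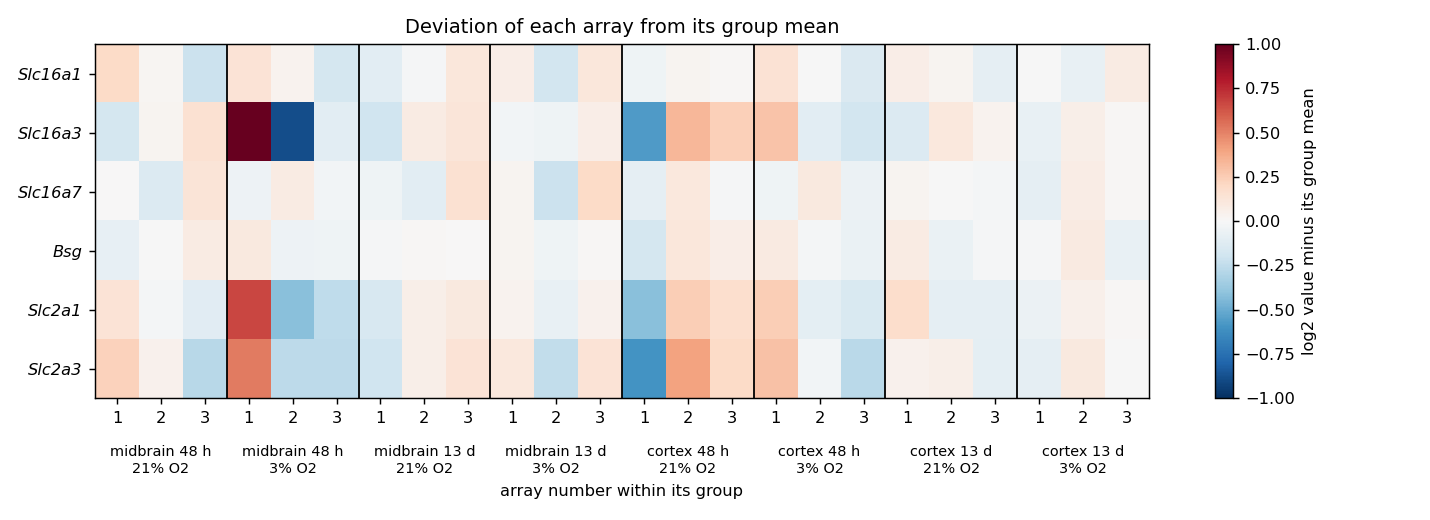
Log2 value minus the mean of its group (colour, red above and blue below) for the 6 genes (rows) on the 24 arrays (columns, 3 per group). Slc16a3, Slc2a1 and Slc2a3 deviate together, most of all on replicate 1 of midbrain 48 h at 3% O2 (0.99, 0.67 and 0.52) and on replicate 1 of cortex 48 h at 21% O2 (-0.57, -0.42 and -0.60).

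Within groups, Slc16a3, Slc2a1 and Slc2a3 varied together from array to array, and Slc16a1 and Bsg less evenly so. On replicate 1 of midbrain 48 h at 3% O2, Slc16a3 stood 0.99, Slc2a1 0.67 and Slc2a3 0.52 log2 units above their group means, while Slc16a1 and Bsg stood 0.14 and 0.10 above. On replicate 1 of cortex 48 h at 21% O2 they stood at -0.57, -0.42 and -0.60, with Bsg at -0.18 and Slc16a1 at -0.04. That array also had an astrocyte marker mean of 8.10 against 9.70 and 9.46 on the other 2 of its group, and an oligodendrocyte lineage mean of 10.06 against 11.14 and 11.04. Over the 24 deviations, Pearson's r was 0.91 between Slc2a1 and Slc2a3, 0.87 between Slc16a3 and Slc2a1 and 0.75 between Slc16a3 and Slc2a3, but 0.02 between Slc16a3 and Slc16a7. It was 0.66 between Slc16a3 and Bsg and 0.70 between Slc16a1 and Slc2a3, but 0.23 between Slc16a1 and Slc16a3 and 0.14 between Slc16a1 and Bsg. These are descriptions over arrays that share group and array set. With both arrays left out, a check added after the data were seen, Slc2a1 passed in cortex 48 h (0.35, limma adjusted p = 0.0389).

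By the likeness of their profiles over the 24 arrays (Pearson's r, 18275 genes searched), Slc16a3 was closest to Bnip3, Pdk1 and Kdm3a, with r of 0.978, 0.975 and 0.972. After subtraction of each region and time group's mean, its closest genes were Pdk1 at 0.995, Bnip3 at 0.979 and Kdm3a at 0.979. Slc2a1 was closest to Kdm3a, Pgam1 and Ldha (0.974, 0.971 and 0.968), and after subtraction to Fam162a, P4ha1 and Egln3 (0.981, 0.980 and 0.976). Slc2a3 was closest to Vldlr, Tnfaip3 and Wdr54 (0.949, 0.939 and 0.921), and after subtraction to Stc2, Pfkfb3 and Smtnl2 (0.989, 0.983 and 0.969). Several of these, such as Pdk1, which encodes a kinase that holds back pyruvate oxidation, and Ldha, which encodes a lactate dehydrogenase subunit, are known hypoxia-responsive genes.

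Bsg was closest to Fbxo10, Vegfa and Bnip3l (0.949, 0.933 and 0.930), and after subtraction to Vegfa, Pfkfb3 and P4ha2 (0.956, 0.932 and 0.927). Slc16a1 was closest to Pgm2, Piga and the hexokinase gene Hk2 (0.969, 0.968 and 0.967), and after subtraction to C1ql3, Pvr and Tmem263 (0.956, 0.955 and 0.95). Slc16a7 was closest to Tspan13, Hdgfl3 and Clvs1 (0.992, 0.990 and 0.990), whereas after subtraction the highest r was 0.769, with Arsk, followed by Micu2 at 0.766 and Ppt1 at 0.743. Among the members, r over the 24 arrays was 0.97 between Slc16a3 and Slc2a1 and -0.69 between Slc16a3 and Slc16a7.

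**Figure D4:**
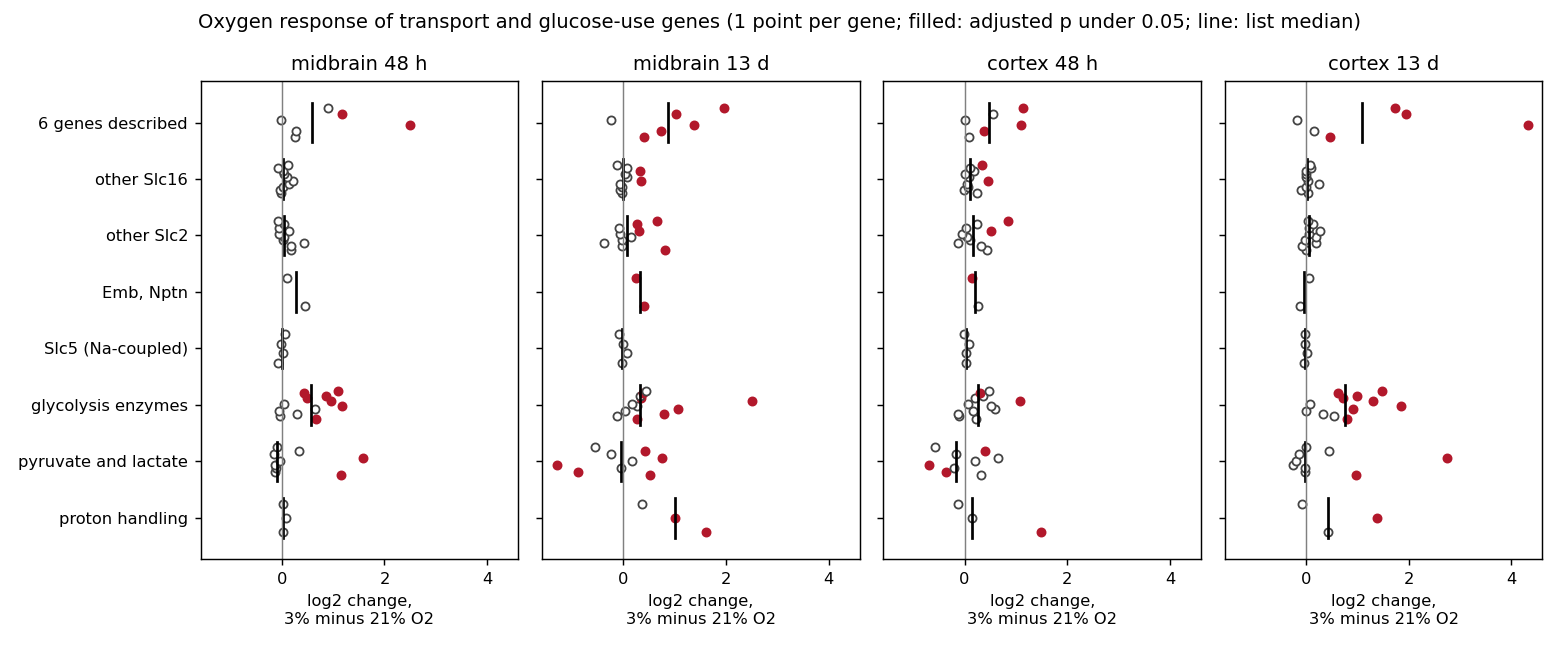
Log2 change at 3% against 21% O2 (x axis) of each measured gene of 8 groups of transport and glucose-use genes (rows) in the 4 region and time groups (panels); filled points have an adjusted p under 0.05 and the vertical line is the median. The 6 genes described have medians of 0.59, 0.88, 0.47 and 1.09, while the other Slc16 and Slc2 genes lie close to 0 in midbrain 48 h and cortex 13 d, with no filled point there.

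Most other members of the carrier families did not pass the test for oxygen in a given group. Of the 10 other Slc16 genes measured, 0 passed in midbrain 48 h and cortex 13 d, and 2 rose in each of the remaining groups: Slc16a14 (0.34) and Slc16a6 (0.32) in midbrain 13 d, and Slc16a14 (0.46) and Slc16a9 (0.33) in cortex 48 h. Of the 10 other Slc2 genes, 0 passed in midbrain 48 h and cortex 13 d, 4 rose in midbrain 13 d (Slc2a10 by 0.82, Slc2a9 by 0.66, Slc2a6 by 0.31 and Slc2a8 by 0.27) and 2 rose in cortex 48 h (Slc2a9 by 0.84 and Slc2a6 by 0.51). None of these fell. The background of rises was 11.2% of probe sets in midbrain 13 d and 6.25% in cortex 48 h. In the mean response over groups, 1 of the 10 other Slc16 genes rose (Slc16a14 by 0.27) and 4 of the 10 other Slc2 genes rose (Slc2a9 by 0.37, Slc2a10 by 0.36, Slc2a6 by 0.31 and Slc2a8 by 0.17), against 8.78% of probe sets. The basigin relatives Emb and Nptn, which encode embigin and neuroplastin and also escort monocarboxylate transporters, rose in midbrain 13 d by 0.40 and 0.24, and Nptn rose in cortex 48 h by 0.15. Of 4 sodium-coupled carriers of the Slc5 family, 0 passed in any group.

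Some of the genes that use the imported glucose also rose. Of 12 measured genes for glycolysis enzymes, 7 rose in midbrain 48 h, 6 in midbrain 13 d, 2 in cortex 48 h and 8 in cortex 13 d, and 0 fell, so that 5, 6, 10 and 4 did not pass, where 0.701%, 11.2%, 6.25% and 0.543% of probe sets rose. The list had medians of 0.57, 0.33, 0.27 and 0.75 against -0.02, -0.01, 0.00 and -0.01 over all tested probe sets. The phosphofructokinase genes led, with Pfkl up by 1.18 in midbrain 48 h and Pfkp by 2.50 in midbrain 13 d. Of 9 genes for pyruvate and lactate handling, Ldha and Pdk1 rose in midbrain 48 h (1.15 and 1.57) and in cortex 13 d (0.98 and 2.74). In midbrain 13 d 3 of the 9 rose, while Pcx, which encodes pyruvate carboxylase, fell by 1.30 and Ldhb fell by 0.88. In cortex 48 h 1 rose, and Pcx fell by 0.68 and Ldhb fell by 0.36.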

How the data were processed

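Biotinylated cDNA from total RNA was hybridised to 24 Affymetrix MoGene arrays, per the labels' protocols. What the authors deposited is a table of log2 values for 28856 probe sets, called normalized in the labels. The log2 scale was read from the values, the normalization method is unknown here, and a change common to all genes of 1 array could not be seen. The platform annotation gave a symbol for 23410 probe sets, which were tested (21789 with 1 symbol, 1621 with several, 5446 unnamed). Of the single-symbol probe sets 21698 matched a RefSeq gene number of GRCm38.p6, with 0 symbols changed.

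Limma 3.58.1 in R 4.3.3 fitted the means of 8 groups (16 residual degrees of freedom), followed by eBayes, two-sided tests and Benjamini-Hochberg adjustment over 23410 probe sets within each of 14 comparisons, at a threshold of 0.05. No filter on low values was used. Exact permutation tests reassigned oxygen labels within groups. The fit was checked on simulated data. Named genes were the 6 members, the 3 most similar profiles to each by either measure, and list genes with the 2 largest rises and falls, plus others picked after their values were seen. The members and lists were chosen with earlier results of these data known. Same-numbered arrays at the 2 oxygen levels deviated together in midbrain (correlations of 0.12 to 0.24 at 48 h and 0.12 to 0.42 at 13 d, all above 0.1). However, replicate 1 of midbrain 13 d at 3% O2 correlated more with another number (0.16) than with its own (0.12). In cortex the correlations were uneven, from -0.04 to 0.42 at 48 h and from -0.37 to 0.23 at 13 d. The pairing comes from the data, and the fit did not use it. Alternatives were all probe sets, the 12988 brighter ones, quantile normalization, median centring, trended robust moderation, array weights (gene-by-gene, since the default estimate stopped before convergence), only the arrays compared, array set 2 alone, a replicate block, and omission of each array in turn. Added after the data were seen were the omission of both uneven arrays and of cortex 48 h.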

Additional observations from a re-analysis of the deposited data

Results flagged for a closer look

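The oxygen response of a gene differed between 2 cultures, by a test of the difference itself, in 8 cases. Between the labelled cortex times (13 d minus 48 h) the differences on the log2 scale were 3.23 for Slc16a3, 1.39 for Slc2a1 and 0.38 for Bsg, whose call was lost on leaving out any one of 8 arrays. Between the midbrain times (13 d minus 48 h) they were 1.06 for Slc2a3, lost on leaving out any one of 7 arrays, and 0.46 for Slc16a1, lost on leaving out any one of 8. Between midbrain and cortex at 13 d they were 0.57 for Slc16a1, -2.94 for Slc16a3 and -0.92 for Slc2a1, the last lost on leaving out any one of 10 arrays. For Slc16a3, the 21% O2 means in the 4 cultures differed more than the 3% O2 means, spanning 3.43 against 2.29 log2 units. The cortex 48 h arrays, whose region markers go only partly with their label, enter 3 of the 8. Neuron markers ran in opposite order over time in cortex and midbrain. The differences between midbrain and cortex at 13 d therefore also rest on the cortex time labels.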

How the results depend on the processing

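No value past the threshold changed sign under any alternative. Some that missed it did: Bsg in cortex 48 h (0.08) was -0.0084 without replicate 1 at 21% O2, the Slc2a1 midbrain time difference (-0.15) was 0.18 without replicate 1 of midbrain 48 h at 3% O2, and Slc2a3 in midbrain 48 h minus cortex 48 h (-0.24) was 0.06 without replicate 1 of cortex 48 h at 21% O2 and 0.03 with array weights. The Slc16a7 values near 0 also took either sign: both 48 h responses, their difference, and the difference between the regions at 13 d. The mean response kept 5 or 6 members called throughout. The 2 members called in midbrain 48 h became 4 after quantile normalization and 0 with only the arrays compared; the 3 in cortex 48 h became 0 with only the arrays compared, and 1 to 3 on leaving out 1 array. Fewer arrays and degrees of freedom enter those fits. The 2 called in the midbrain time difference became 1 with only the arrays compared and 0 to 2 on leaving out 1 array. Comparisons with 0 calls gained some. Midbrain 48 h minus cortex 48 h had 1 among brighter probe sets, 1 with median centring, 3 with array weights, 1 without both uneven arrays and 0 to 2 on leaving out 1 array. Midbrain 48 h minus cortex 13 d had 1 with array weights, 3 without both uneven arrays and 0 to 2 on leaving out 1 array. Midbrain 13 d minus cortex 48 h had 1 each among brighter probe sets and with quantile normalization, median centring or trended robust moderation, 4 with array weights, 3 without both uneven arrays and 0 to 2 on leaving out 1 array. The cause of these changes was not tested.

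The mean change of Slc16a7 was -0.0608 without midbrain 13 d (exact permutation p = 0.184) and ranged from -0.127 to -0.0764 on leaving out 1 array, with the call lost in 15 of 24. Slc2a1 minus Slc2a3 ranged from -0.28 to -0.23. The replicate block treats same-numbered arrays as pairs, whose correlations were above 0.1 throughout midbrain but not throughout cortex. With it Bsg lost its cortex time difference (0.38, limma adjusted p = 0.0851), and the mean of Slc16a7 passed (-0.10, limma adjusted p = 0.049). Beside these and Slc16a7 in midbrain 13 d, the block changed no other call. The deposited values give no detection limit, so levels near 7.4, such as Slc16a3 at 21% O2 in midbrain 48 h and cortex 13 d, may understate a fold change.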

Other observations

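Among 7 regulators of glucose transport, Egln3, a HIF prolyl hydroxylase that is itself hypoxia-responsive, rose in all 4 cultures, by 1.12 in midbrain 48 h, 1.22 in midbrain 13 d, 1.09 in cortex 48 h and 2.44 in cortex 13 d (limma). Txnip, an arrestin-related protein that lowers glucose uptake by drawing GLUT1 from the membrane, fell by 1.29 in midbrain 13 d and fell by 0.86 in cortex 48 h, rose by 1.10 in cortex 13 d, and in midbrain 48 h differed by 0.55 (limma adjusted p = 0.289). Its relative Arrdc4 fell by 1.03 in midbrain 13 d. The carbonic anhydrase genes, whose products handle the protons released with lactate, rose in some cultures: Car9 by 1.00 in midbrain 13 d and 1.37 in cortex 13 d, and Car12 by 1.62 in midbrain 13 d and 1.48 in cortex 48 h.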
